A study of Mus musculus with 8 samples.

Results

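The ERK feedback genes described here are 10 genes of the dual-specificity phosphatase, Sprouty and Spred families: Dusp1, Dusp2, Dusp4, Dusp5, Dusp6, Dusp10, Spry1, Spry2, Spred1 and Spred2. They were taken by symbol from 23284 gene symbols in the deposited tables, and all 10 were among the 11931 genes that reached at least 1 FPKM in at least 2 libraries and were tested. The group was chosen on earlier results of these same libraries, in which Dusp5 was higher after both treatments and Spred1 lower after glucose plus lipid. The changes of the members are therefore given as a description, and their counts support nothing about the group.

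RNA was sequenced from LSK cells (Lineage- Sca-1+ c-Kit+), marrow cells rich in haematopoietic stem cells and multipotent progenitors. The tested animals received glucose alone (2 g/kg), or glucose (2 g/kg) together with Intralipid, a 20% lipid emulsion (6 mL/kg), and controls received PBS, all intravenously over 7 days after a fast of over 14 hours. All were C57BL/6 males of 12 to 13 weeks, fed freely in the daytime, and marrow of femurs and tibias was taken on day 8. Glucose and glucose plus lipid have 2 libraries each and PBS has 4, each from about 10000 sorted cells, and the labels call them biological replicates without saying whether a library is 1 mouse or a pool. PBS libraries H and I (replicates 1 and 2) share their letters with the lipid libraries and were taken as the controls of glucose plus lipid. PBS libraries J and K (replicates 3 and 4) were taken as the controls of glucose, an inference from the names. No library of lipid alone was analysed here.

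Signals from receptors such as Kit pass through Ras, Raf and MEK to the kinase ERK, which in turn raises transcription of genes that shut the pathway down. Dusp proteins remove the activating phosphates from ERK or from its relatives p38 and JNK, Sprouty proteins act between the receptor and Raf, and Spred proteins bring the Ras inhibitor neurofibromin to the membrane. In mouse, Spred1 is known as a restraint on the self-renewal of haematopoietic stem cells. Transcripts of several of these genes turn over fast, so their level is often read as a trace of recent ERK activity; no protein or phosphorylation was measured here.

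The LSK marker list held in every library, with all 11 genes detected and a summed level of 1639 to 2081 FPKM (fragments scaled by transcript length and sequencing depth). Glucose plus lipid replicate 1 stood apart. Its 12 neutrophil genes summed to 66250 FPKM, against 246 to 609 in the other 7 libraries, its 10 monocyte and macrophage genes to 754 FPKM, against 49.0 to 85.5, and its 7 T and B cell genes to 51.5 FPKM, against 2.37 to 5.31. The differences of the 10 members after glucose plus lipid, and the list medians, are therefore also given without it. Estimated depth was 5869000 to 8485000 fragments per library. In bulk RNA, fewer cells of a type and less RNA per cell cannot be told apart.

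Per length, the members spanned levels from phosphatases among the most abundant transcripts of the cells to genes near the limit of the test. Dusp1 averaged 458 FPKM over the 8 libraries, above 98.8% of the genes tested, and Dusp2 averaged 317 FPKM, above 98.0%. Dusp5 followed with 86.5 FPKM, Dusp6 with 61.5, Spry1 with 11.6, Spred1 with 5.78, Spry2 with 4.68, Spred2 with 3.49, Dusp4 with 3.16 and Dusp10 with 1.99. In this order only Dusp2 over Dusp5 and Dusp6 over Spry1 were neighbours whose ranges over the 8 libraries did not overlap. Dusp1 and Dusp2, both inducible nuclear phosphatases, together made up 78.7% to 86.1% of the summed FPKM of the 6 Dusp members in every library. The 4 Sprouty and Spred genes summed to 23.2 to 28.7 FPKM in treated libraries and 18.1 to 33.2 FPKM in PBS libraries.

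**Figure D1:**
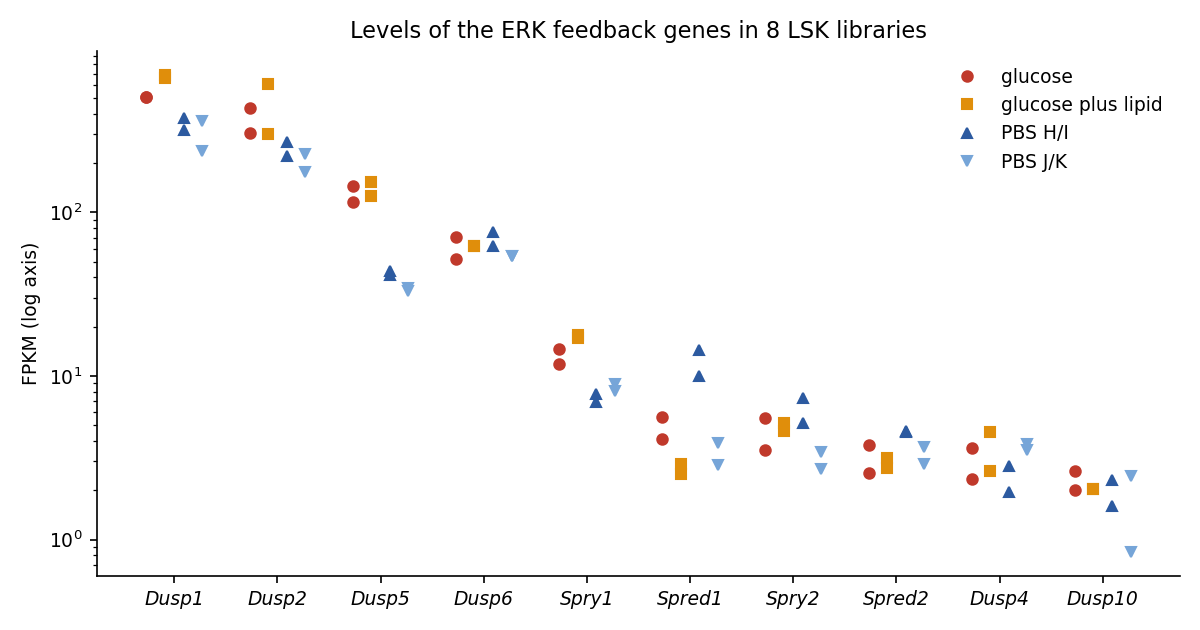
FPKM of the 10 genes on a log axis, 1 point per library, ordered by mean level; colours and shapes mark glucose, glucose plus lipid, PBS H/I, and PBS J/K. Treated points lie above all PBS points for Dusp1, Dusp2, Dusp5 and Spry1, and PBS H/I stand above the rest for Spred1 (14.4 and 10.04 FPKM).

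Dusp5, a nuclear phosphatase that acts on ERK1 and ERK2, was higher in every treated library. Its gene lies on chromosome 19 at 53529109 to 53542431 (plus strand, 4 exons, GRCm38). It stood at 145.3 and 115.3 FPKM after glucose, against 33.1 and 34.5 FPKM in PBS J/K. After glucose plus lipid it stood at 126.3 and 152.2 FPKM, against 43.9 and 41.6 FPKM in PBS H/I. The groups did not overlap, and the lowest treated library lay well above the highest control. On the log2(FPKM + 1) scale it was higher by 1.91 ± 0.14 (SE) after glucose and by 1.68 ± 0.14 after glucose plus lipid, with 2 libraries against 2 in each. Estimated fragments on the gene ran from 1833 to 3194 in treated libraries and from 501 to 692 in PBS libraries. Over all 4 treated against all 4 PBS libraries its mean was 134.8 ± 17.0 FPKM (SD, n = 4) against 38.2 ± 5.26 FPKM (SD, n = 4), a difference of 1.79 ± 0.11 on the log2 scale, second by p among all genes tested.

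Dusp5 was the 1 member called in limma at an adjusted p below 0.05 in each treatment comparison. Beside it, 0.101% of all genes tested (12 of 11931) were called for glucose and 0.0754% (9 of 11931) for glucose plus lipid. Over all treated against all PBS, Dusp5 and Dusp1 were called, beside 0.268% of all genes (32 of 11931). As the members were chosen on these contrasts, nothing is read from these counts. Without glucose plus lipid replicate 1, Dusp5 was higher by 1.81 ± 0.16 (adjusted p = 0.0178). In the lipid comparison its call was lost without PBS H (adjusted p = 0.0905), without PBS I (adjusted p = 0.103) and with no filter on low genes (adjusted p = 0.0509). It held in the other 17 of 20 alternatives, over which adjusted p began at 0.00138, and in all 20 for glucose, with adjusted p from 0.00211 to 0.0386.

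**Figure D2:**
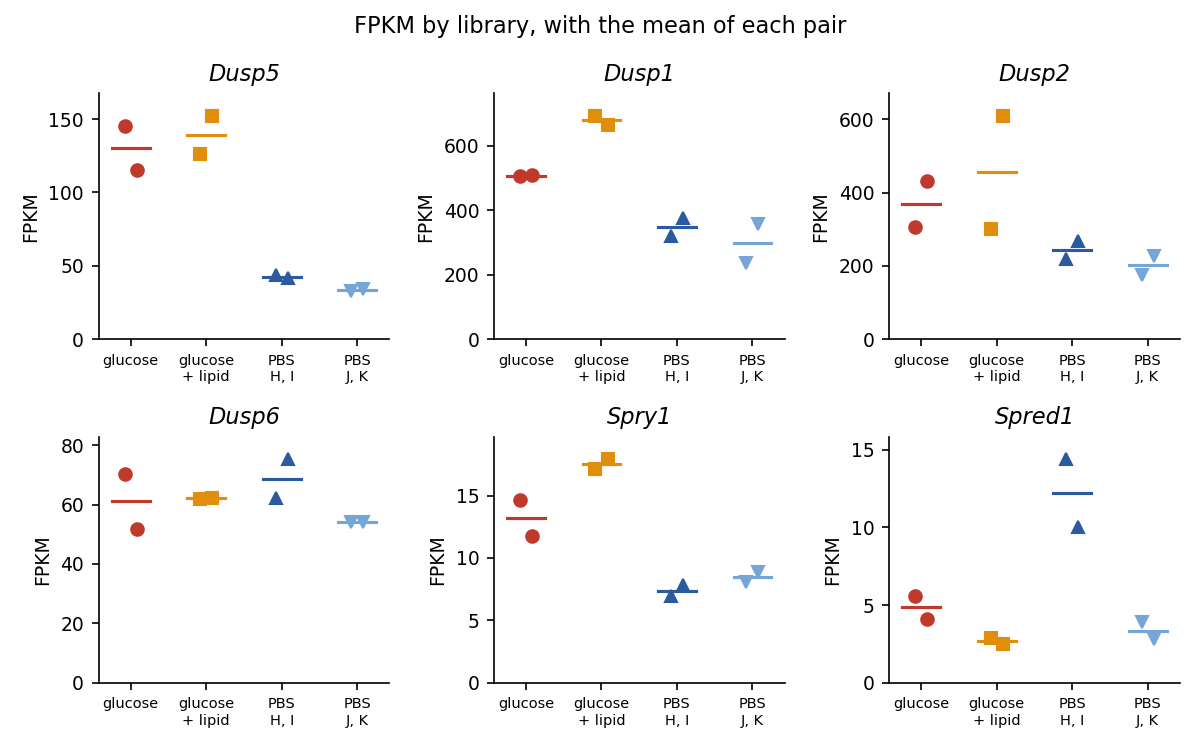
FPKM by library for Dusp5, Dusp1, Dusp2, Dusp6, Spry1 and Spred1, with glucose and glucose plus lipid left of the PBS pairs; points are libraries and bars are means of 2, and axes start at 0. Dusp5 is at 115.3 to 152.2 FPKM in treated and 33.1 to 43.9 FPKM in PBS libraries, Dusp6 is at 51.7 to 70.4 FPKM in treated and 54.1 to 75.2 FPKM in PBS libraries, and Spred1 is high in PBS H/I.

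Dusp1, an inducible nuclear phosphatase of p38, JNK and ERK, moved the same way with a smaller fold. Its coding transcript lies on chromosome 17 at 26505590 to 26508519 (minus strand, 4 exons). It stood at 507.1 and 508.9 FPKM after glucose, against 238.1 and 358.7 FPKM in PBS J/K. After glucose plus lipid it stood at 693.5 and 665.0 FPKM, against 320.3 and 375.7 FPKM in PBS H/I. All 4 treated libraries lay above all 4 PBS libraries. The log2 difference was 0.80 ± 0.18 after glucose and 0.97 ± 0.18 after glucose plus lipid, and neither was called with all 8 libraries in the fit. The lipid difference was 0.94 ± 0.22 without glucose plus lipid replicate 1. Dusp1 was called after glucose without PBS K (adjusted p = 0.0344), and after glucose plus lipid without PBS J (adjusted p = 0.0311) or PBS K (adjusted p = 0.0321), which leave the lipid difference itself at 0.97. Over all 8 libraries it was 0.88 ± 0.13 (adjusted p = 0.0323), but only 5 of 19 alternatives kept that call. It was lost without any 1 of the libraries other than PBS K, and adjusted p ran from 0.0054 to 0.143. Longer annotated transcripts of Dusp1 overlap Ergic1 on the other strand, and the kit does not mark strand, so reads there cannot be told apart.

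Dusp2, a nuclear phosphatase of activated blood cells (chromosome 2, 127336159 to 127338376), varied widely between the lipid replicates. It stood at 306.0 and 432.9 FPKM after glucose, against 175.5 and 227.7 FPKM in PBS J/K, a log2 difference of 0.86 ± 0.32. After glucose plus lipid it stood at 301.0 and 609.5 FPKM, against 220.1 and 267.2 FPKM in PBS H/I, a log2 difference of 0.82 ± 0.32. The groups did not overlap, but the lipid pair spread widely: the difference was 1.33 ± 0.24 without its replicate 1 and 0.31 without its replicate 2. Dusp2 was not called in any comparison.

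Dusp6, the cytoplasmic phosphatase specific for ERK and a common readout of ERK output, showed no such difference. Its gene lies on chromosome 10 at 99263231 to 99267489. It stood at 70.4 and 51.7 FPKM after glucose, against 54.2 and 54.1 FPKM in PBS J/K, and at 61.8 and 62.3 FPKM after glucose plus lipid, against 62.2 and 75.2 FPKM in PBS H/I. Treated and PBS libraries overlapped throughout. Over all 8 libraries the log2 difference was 0.01 ± 0.12, with a 95% interval of -0.27 to 0.28. The lipid difference was -0.13 ± 0.20 without glucose plus lipid replicate 1 and -0.14 ± 0.16 with it. The ratio of Dusp5 to Dusp6 within a library, which needs no scaling between libraries, was 2.04 to 2.44 in treated libraries and 0.552 to 0.705 in PBS libraries. That of Dusp1 to Dusp6 was 7.20 to 11.2 in treated libraries and 4.39 to 6.63 in PBS libraries.

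The stretch before the start is printed for Dusp5 and Dusp1, which were higher in every treated library, and for Dusp6, which was not. Dusp2 and Spry1 were also higher in every treated library and are not printed. Each is the 250 bases before the RefSeq start (GRCm38.p6, 5′ to 3′ on the gene's strand), at chr19:53528895-53529144 (plus) for Dusp5, chr17:26508473-26508722 (minus) for Dusp1 and chr10:99262981-99263230 (plus) for Dusp6. The RefSeq starts of Dusp5 and Dusp1 lie inside the GENCODE transcripts given above, so the last bases of these windows are transcribed in that annotation. Capitals mark matches to the cAMP response element (CRE, TGACGTCA), its core (TGACG) and the CArG box, the site of serum response factor.
Dusp5: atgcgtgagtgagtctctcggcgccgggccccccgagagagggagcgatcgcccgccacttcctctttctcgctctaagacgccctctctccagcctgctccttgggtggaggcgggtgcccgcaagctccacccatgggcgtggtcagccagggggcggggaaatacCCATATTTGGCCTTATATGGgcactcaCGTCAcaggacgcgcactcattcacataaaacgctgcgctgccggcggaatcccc
Dusp1: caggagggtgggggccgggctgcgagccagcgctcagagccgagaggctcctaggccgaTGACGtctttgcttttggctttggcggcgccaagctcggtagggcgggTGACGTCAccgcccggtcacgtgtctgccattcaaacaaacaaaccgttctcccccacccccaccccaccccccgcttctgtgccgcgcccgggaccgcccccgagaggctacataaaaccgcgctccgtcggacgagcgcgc
Dusp6: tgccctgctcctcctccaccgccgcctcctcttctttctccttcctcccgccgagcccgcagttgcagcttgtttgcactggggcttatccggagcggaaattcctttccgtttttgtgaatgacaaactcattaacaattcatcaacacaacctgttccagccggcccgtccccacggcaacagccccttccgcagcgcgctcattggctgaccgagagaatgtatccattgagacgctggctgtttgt
Dusp5 holds 2 adjacent CArG boxes, at -82 to -73 and -72 to -63 from the start, and a CRE core on the other strand at -55 to -51. Dusp1 holds a full CRE at -143 to -136 and a further CRE core at -191 to -187. Dusp6 holds no match to any motif searched. Over 10843 promoters of tested genes, a CArG box was found in 1.199%, a full CRE in 2.62% and a CRE core, which each full CRE also contains, in 26.9%.

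Both strands of the 9 members matched in the RefSeq table were searched; Dusp4 was not matched. Spred2, whose treated and PBS libraries overlapped, held a CRE core at -51 to -47. Its GENCODE transcript begins before that match, so the match lies in transcribed sequence in that annotation. Dusp2 held an EGR motif (GCGNGGGCG) at -98 to -90, found in 8.66% of promoters. Dusp2 and Spry1, also higher in every treated library, held no CRE, CRE core or CArG box in the stretch searched. Sequence outside that stretch was not searched, and whether any match bears on the response was not tested. The AP-1 motif (TGANTCA, 4.45% of promoters) and the ETS motif (CCGGAAG, 13.9%) were in none of the 9. A match describes letters and says nothing of binding.

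**Figure D3:**
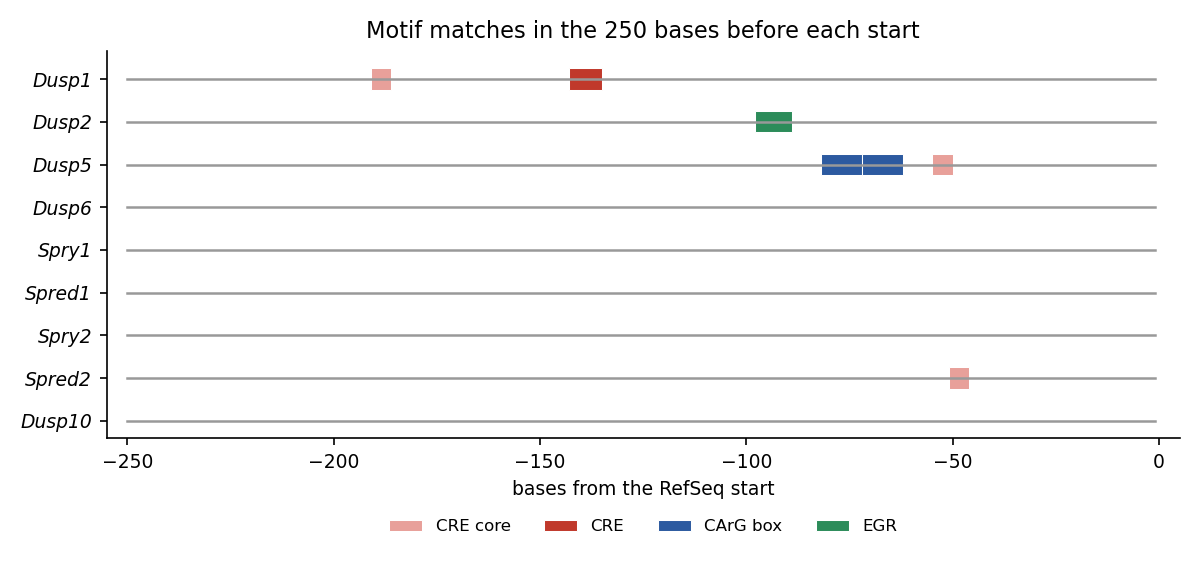
Motif matches on either strand in the 250 bases before the RefSeq start of 9 members; the x axis is distance from the start in bases and colours mark the motif. The 2 CArG boxes of Dusp5 lie side by side, Dusp1 carries the full CRE, and the lines of Dusp6, Spry1, Spred1, Spry2 and Dusp10 are empty.

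The 3′ untranslated regions also set the members apart. ATTTA, the core of the AU-rich element found in unstable transcripts, occurred 6.88 times per kb in Dusp2 and 5.80 times per kb in Dusp1. That is more than in 97.2% and 95.5% of the 9673 tested genes with a region of at least 100 bases, whose median was 1.31 per kb. Dusp5 had 0.902 per kb and Dusp6 0.841 per kb, both below that median. The extended form TATTTAT occurred in 6 of 10 members (Dusp1, Dusp2, Spry1, Spry2, Spred1 and Spred2) and in 28.1% of those genes.

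The remaining phosphatases were low and did not separate by treatment. Dusp4, a nuclear phosphatase of ERK and JNK (chromosome 8, 34807297 to 34819894), stood at 2.35 and 3.62 FPKM after glucose, against 3.53 and 3.83 FPKM in PBS J/K, and at 4.53 and 2.64 FPKM after glucose plus lipid, against 2.81 and 1.94 FPKM in PBS H/I. Dusp10, which acts on p38 and JNK (chromosome 1, 184013302 to 184075636), ranged from 2.01 to 2.62 FPKM in treated libraries and from 0.841 to 2.44 FPKM in PBS libraries. An estimated 34 to 73 fragments lay on Dusp4 and 14 to 55 on Dusp10. Without glucose plus lipid replicate 1 the lipid difference of Dusp4 was 0.12 ± 0.31, against 0.42 ± 0.28 with it, and that of Dusp10 was 0.05 both with and without it. Dusp10 overlaps 1700056E22Rik on the other strand, so its reads there cannot be assigned. Dusp5 and Spry1 each overlap an annotated gene on the other strand as well, with the same limit for reads there.

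Spry1, which restrains signalling of receptor tyrosine kinases (chromosome 3, 37639947 to 37644598), was higher in all treated libraries. It stood at 14.6 and 11.8 FPKM after glucose, against 8.11 and 8.90 FPKM in PBS J/K, a log2 difference of 0.57 ± 0.16. After glucose plus lipid it stood at 17.1 and 17.9 FPKM, against 6.96 and 7.80 FPKM in PBS H/I, a log2 difference of 1.15 ± 0.16. All 4 treated libraries lay above all 4 PBS libraries. The difference over all 8 libraries, 0.86 ± 0.15, was not called (adjusted p = 0.0853; 0.0276 to 0.285 over 19 alternatives, 1 of which called it). Without glucose plus lipid replicate 1 the lipid difference was 1.18 ± 0.21.

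Its relative Spry2 (chromosome 14, 105891947 to 105896819) did not follow it. Spry2 stood at 5.56 and 3.55 FPKM after glucose, against 3.44 and 2.70 FPKM in PBS J/K. After glucose plus lipid it stood at 4.61 and 5.15 FPKM, against 7.32 and 5.12 FPKM in PBS H/I. The PBS pairs did not overlap each other, with PBS H/I above PBS J/K. The lipid difference was -0.28 ± 0.25, and -0.21 ± 0.32 without glucose plus lipid replicate 1. The ratio of Spry1 to Spry2 was 2.63 to 3.72 in treated libraries and 0.951 to 3.29 in PBS libraries, which overlap.

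Spred1 (chromosome 2, 117121374 to 117182279, 7 exons) was well below its own control pair after glucose plus lipid, and close to the other PBS pair. It stood at 5.62 and 4.10 FPKM after glucose, against 3.89 and 2.84 FPKM in PBS J/K, a log2 difference of 0.42 ± 0.25. After glucose plus lipid it stood at 2.88 and 2.52 FPKM, against 14.4 and 10.04 FPKM in PBS H/I, a log2 difference of -1.82 ± 0.25 that was not called (adjusted p = 0.0758). Without replicate 1 of glucose plus lipid it was -1.89 ± 0.31. PBS H/I lay above all other 6 libraries, which ran from 2.52 to 5.62 FPKM. The PBS pairs, which had the same treatment, differed by 1.59 ± 0.25 on the log2 scale (adjusted p = 0.0985), with 381 to 552 estimated fragments in PBS H/I and 103 to 143 in PBS J/K.

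With PBS J/K as controls in place of PBS H/I, the lipid difference of Spred1 was -0.23 ± 0.25, and with all 4 PBS libraries it was -1.02 ± 0.51. Glucose against PBS H/I gave -1.17 ± 0.25, the opposite sign to that against PBS J/K. Markers of other cells also differed between the control pairs, in both directions. The 6 mast cell and basophil genes, none of them at 0 in all libraries, summed to 272.9 and 23.8 FPKM after glucose plus lipid and to 24.7 and 29.5 FPKM after glucose. They summed to 140.5 and 144.3 FPKM in PBS H/I and to 64.2 and 18.6 FPKM in PBS J/K. The 10 erythroid genes, likewise none at 0 throughout, summed to 4269 and 2875 FPKM after glucose plus lipid and to 1499 and 1283 FPKM after glucose. In the controls they summed to 1756 and 1887 FPKM in PBS H/I and to 1322 and 1176 FPKM in PBS J/K. Car2 made up most of each control sum (936.7 and 1081 FPKM, against 749.6 and 878.3 FPKM). Gene by gene the control pairs differed more, with all 10 higher in PBS H/I and a median log2 difference of 1.43. Hba-a1 and Beta-s were called between the PBS pairs, beside 0.0503% of all genes. Hba-a1 stood at 164.2 and 134.2 FPKM, against 21.3 and 20.5 FPKM. Other lists were lower in PBS H/I than in PBS J/K. Monocyte and macrophage genes summed to 50.1 and 49.0 FPKM, against 85.5 and 77.4 FPKM. Megakaryocyte and platelet genes summed to 97.7 and 91.8 FPKM, against 145.2 and 149.5 FPKM. Neutrophil genes summed to 347.1 and 323.5 FPKM, against 608.7 and 376.5 FPKM. NK and cytotoxic genes summed to 426.7 and 371.5 FPKM, against 497.6 and 493.0 FPKM. Nkg7 made up most of that sum (403.2 and 344.7 FPKM, against 466.5 and 462.7 FPKM). Of the 4 genes tested on that list, 3 were lower and 1 was higher in PBS H/I. Gzmb, also on the mast cell list, went the other way (10.4 and 13.6 FPKM, against 4.11 and 0.124 FPKM). The part of any of these markers in the Spred1 values was not tested.

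Spred2 (chromosome 11, 19924375 to 20024026), which also inhibits Ras signalling, was also highest in PBS H/I, at a smaller scale. It stood at 2.55 and 3.78 FPKM after glucose, against 2.88 and 3.70 FPKM in PBS J/K, and at 2.73 and 3.15 FPKM after glucose plus lipid, against 4.52 and 4.58 FPKM in PBS H/I. The lipid groups did not overlap, with a log2 difference of -0.50 ± 0.23 that was not called. It was -0.42 ± 0.28 without glucose plus lipid replicate 1, and -0.12 ± 0.23 against PBS J/K.

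**Figure D4:**
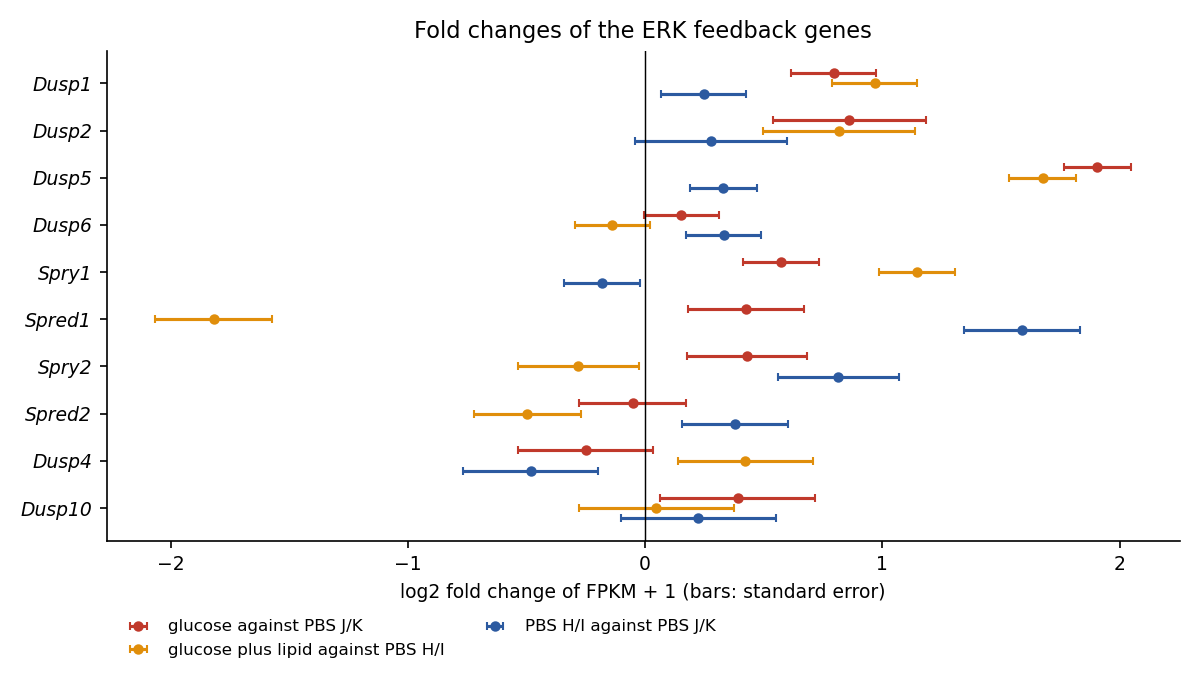
Log2 fold changes of FPKM + 1 with standard errors for the 10 genes, for glucose against PBS J/K, glucose plus lipid against PBS H/I, and PBS H/I against PBS J/K. Dusp5 is at 1.91 and 1.68 in the treatment comparisons and 0.33 between PBS pairs, whereas Spred1 is at 0.42 and -1.82 and at 1.59 between PBS pairs.

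Each member's libraries can also be compared by whether the groups overlap. Between glucose and PBS J/K, 6 of 10 members had both glucose libraries above both controls, as did 22.3% of all genes tested, and none had both below, as did 24.8%. For glucose plus lipid against PBS H/I, 4 were above and 2 below, beside 22.2% and 21.8% of all genes. Between PBS H/I and PBS J/K, 5 were above (Dusp5, Dusp6, Spry2, Spred1 and Spred2) and 2 below (Dusp4 and Spry1), beside 24.4% and 25.3% of all genes. With all 4 treated against all 4 PBS libraries, 4 members were above and none below, beside 3.55% and 2.84% of all genes. The rule used the treatment contrasts, and nothing is read from these counts.

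The median log2 fold change of the members was 0.43 after glucose and 0.23 after glucose plus lipid, beside -0.00 and 0.01 over all genes tested. The lipid median of the members was 0.08 without glucose plus lipid replicate 1. No member was called by limma in the difference of the effects, beside 0.0168% of all genes. At an unadjusted p under 0.05 there were 2 members (Spry1 and Spred1), beside 12.2% of all genes. None was called between the PBS pairs, beside 0.0503% of all genes. At an unadjusted p under 0.05 there were 3 members (Dusp5, Spry2 and Spred1), beside 17.2% of all genes. Limma without a variance trend also called none in either. For Dusp5 the difference of the effects was -0.23 ± 0.20 on the log2 scale, with a 95% interval of -0.69 to 0.23.

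**Figure D5:**
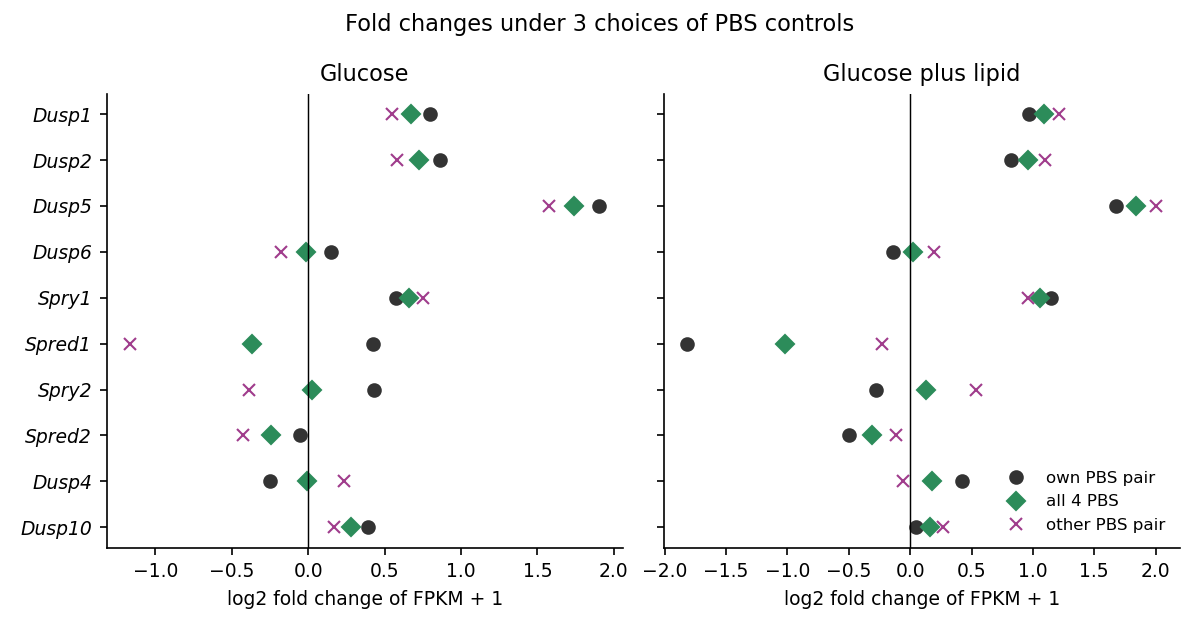
Log2 fold changes of the 10 genes after glucose (left) and glucose plus lipid (right) under 3 choices of controls: the own PBS pair, all 4 PBS libraries and the other PBS pair. Dusp1, Dusp2, Dusp5 and Spry1 stay above 0 with each choice in both panels, and Spred1 after glucose is at 0.42, -0.37 and -1.17.

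Of the 7 other MAPK phosphatases, Sprouty and Spred genes, 4 were tested and none was called in any of the 5 comparisons by limma; over all 8 libraries 1 had an unadjusted p under 0.05, as did 11.4% of all genes tested, the share to set beside each such count in the lists that follow. Spry4, often induced by ERK, stood at 1.30 and 0.497 FPKM after glucose, against 2.198 and 1.056 FPKM in PBS J/K, and at 0.247 and 0.461 FPKM after glucose plus lipid, against 1.23 and 1.41 FPKM in PBS H/I. All treated libraries but 1 lay below all PBS libraries for Spry4, the other way from Spry1, with a log2 difference of -0.62 ± 0.23 over all 8 libraries. Dusp7, a cytoplasmic phosphatase of ERK, averaged 2.92 ± 0.38 FPKM in treated and 3.54 ± 1.09 FPKM in PBS libraries (SD, n = 4 each). Dusp16, which acts on JNK and p38, averaged 2.08 ± 0.24 FPKM in treated and 1.61 ± 0.58 FPKM in PBS libraries (SD, n = 4 each). Spred3 averaged 1.22 ± 0.09 FPKM in treated and 0.970 ± 0.46 FPKM in PBS libraries (SD, n = 4 each). Dusp8 and Dusp9 were below the filter, and Spry3 was listed at 0 in all 8 libraries.

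Upstream, none of 28 tested genes of the Ras, Raf, MEK and ERK cascade was called in any comparison. Over all 8 libraries the median of this list was 0.04, 16 were above and 12 below 0, and 2 had an unadjusted p under 0.05. On the log2 scale its extremes among genes with a mean of at least 3 FPKM were the ERK-activated kinase gene Mknk1 and the small GTPase gene Rras2. Mknk1 averaged 25.05 ± 4.21 FPKM in treated and 18.7 ± 0.94 FPKM in PBS libraries, and Rras2 averaged 4.53 ± 0.32 FPKM in treated and 6.93 ± 0.93 FPKM in PBS libraries (SD, n = 4 each). None of 19 tested receptors was called, with a median of 0.11, 17 above 0 and 3 at an unadjusted p under 0.05. Among those with a mean of at least 3 FPKM, the monocyte receptor gene Csf1r had the largest log2 difference, 0.81 ± 0.63. It averaged 7.94 ± 11.1 FPKM in treated and 2.15 ± 0.51 FPKM in PBS libraries (SD, n = 4 each). Csf1r is also on the monocyte list that was high in glucose plus lipid replicate 1. The cytokine receptor gene Csf2ra, at 46.4 FPKM in glucose plus lipid replicate 1 and 24.2 to 30.1 FPKM in the other treated libraries, averaged 31.3 ± 10.5 FPKM in treated and 20.6 ± 1.59 FPKM in PBS libraries (SD, n = 4 each). None of 18 other restraints of Ras and ERK was called, with a median of 0.05 and 3 at an unadjusted p under 0.05. Among these, the cytokine feedback gene Socs3 averaged 9.24 ± 3.09 FPKM in treated and 4.26 ± 1.32 FPKM in PBS libraries (SD, n = 4 each; log2 difference 0.94 ± 0.18, adjusted p = 0.108).

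None of 21 tested genes of the p38 and JNK cascade was called, with a median of 0.06 and 3 at an unadjusted p under 0.05. Among its genes with a mean of at least 3 FPKM, the MEK-activating kinase gene Map3k8 had the largest log2 difference, 0.72 ± 0.18. Map3k8 averaged 9.13 ± 1.47 FPKM in treated and 5.21 ± 1.24 FPKM in PBS libraries (SD, n = 4 each). None of 9 atypical dual-specificity phosphatases was called, with a median of 0.04 and 1 at an unadjusted p under 0.05. That gene was Dusp19, with 7.08 ± 1.13 FPKM in treated and 10.6 ± 2.10 FPKM in PBS libraries (SD, n = 4 each; log2 difference -0.51 ± 0.17). With glucose plus lipid replicate 1 left out, none of these lists had a gene called for glucose plus lipid or for all treated against all PBS, and the medians of the second comparison were -0.00 for the cascade, 0.11 for the receptors, 0.09 for the other restraints, 0.00 for p38 and JNK and -0.04 for the atypical phosphatases.

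Part of the transcripts that ERK is known to raise were higher after both treatments. Of 37 such genes, 33 were tested. After glucose 3 rose (Btg2, Nr4a1 and Plk2), beside 0.101% of all genes called, and after glucose plus lipid 2 rose (Nr4a1 and Plk2), beside 0.0754%, with medians of 0.70 and 0.91. Without glucose plus lipid replicate 1 the lipid median was 0.70, and Ier2, chosen for naming after its value was seen, was the 1 gene called. Over all 8 libraries 10 were called higher and none lower, beside 0.268% of all genes called. There 26 had an unadjusted p under 0.05 in limma, beside 11.4% of all genes. Of the 33, 26 were above 0, beside 48.7% of all genes, and the median was 0.76, beside -0.01 over all genes tested. With glucose plus lipid replicate 1 left out, 9 were called higher, 24 were above 0 and the median was 0.73. By p these were led by Nr4a1, an early nuclear receptor, at 225.4 ± 55.3 FPKM in treated and 31.8 ± 10.2 FPKM in PBS libraries, and by the antiproliferative gene Btg2, at 81.6 ± 15.0 FPKM in treated and 18.9 ± 6.36 FPKM in PBS libraries (SD, n = 4 each). Fos, a subunit of AP-1, averaged 1030 ± 110.1 FPKM in treated and 401.8 ± 86.9 FPKM in PBS libraries (SD, n = 4 each). Many genes of this list respond to other pathways as well. Several had been seen to rise in earlier work on these libraries, and the list was chosen with that known. Its counts and medians are therefore a description, and nothing is read from them.

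The genes whose levels were most like those of Dusp5 over the 8 libraries, among 9329 with a mean of at least 3 FPKM, were Sik1 (Pearson r of log2 values 0.991), Nr4a1 (0.986), Cd69 (0.983), Cdkn1a (0.976) and Plk2 (0.974). Those most like Spred1 were Mudeng (0.970), Adam10 (0.966), Yme1l1 (0.964), Cd164 (0.961) and Pbrm1 (0.957), each with both PBS H/I above all other libraries. Those most like Dusp6 were Cldn25 (0.974), Tex9 (0.951), Yipf4 (0.949), Fam76a (0.935) and Sp3 (0.934). No gene was in more than 1 of these groups. The 8 points share treatment pair and depth, and the coefficients only rank likeness.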

How the data were processed

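LSK cells were profiled in 8 libraries, made per the labels' protocols with SMART-Seq HT and Nextera XT, a preparation that does not mark strand. The submitters' processing notes name Cuffnorm 2.2.1, TopHat2 2.0.13, SAMtools 1.0 and Bowtie2 2.2.3, with the mm10 build. The deposited values were FPKM, 1 per gene symbol and library, read as such from the values and the naming of Cuffnorm; no source used here gives the annotation or how Cuffnorm scaled the libraries. Levels between genes therefore rest on the authors' transcript lengths.

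The members and gene lists were chosen with earlier results of these data known. Values were transformed to log2(FPKM + 1), a scale that understates changes of low genes, and the 11931 genes reaching 1 FPKM in 2 or more libraries were fitted in limma 3.58.1 (R 4.3.3) with a mean-variance trend. All 8 libraries entered 1 fit of 4 groups. All treated against all PBS was a second fit with the control set as a block. P-values (2-sided) were Benjamini-Hochberg adjusted over all genes of a comparison, with a threshold of 0.05. Each sets a difference against the spread between libraries left after the fit, which limma draws toward the trend over all genes. Whether that spread is between mice or between pools is not known. Depth was estimated from low values of genes with 1 transcript, each taken as 1 fragment on that transcript. These values were sought in a fixed window, which limits the depths it can give. It rests on 36 to 80 genes a library and is approximate, and no counting intervals were made from it.

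Positions and 3′ untranslated regions came from GENCODE vM21 (GRCm38), and promoters from RefSeq (GRCm38.p6). All 10 members are named, and every relative in the list of other MAPK phosphatases, Sprouty and Spred. Of the other lists, called members (at most 6, by smallest p) and members with the largest or smallest change were eligible, up to 4 a list where none was called, and the 5 genes most like Dusp5, Spred1 and Dusp6. Alternatives changed the pseudocount, filter, scaling, variance trend, control pair or replicate block, or left out 1 library. The lists without lipid replicate 1 were added after the data were seen. Python 3.11.15 with pandas 2.3.3, numpy 2.4.6 and matplotlib 3.10.9 served for tables and plots.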

Additional observations from a re-analysis of the deposited data

Results flagged for a closer look

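Spred1 stood on opposite sides of its controls under the treatments. Both glucose libraries (5.62 and 4.10 FPKM) lay above both PBS J/K (3.89 and 2.84 FPKM), and both glucose plus lipid libraries (2.88 and 2.52 FPKM) lay below both PBS H/I (14.4 and 10.04 FPKM). The effect with lipid minus the effect without was -2.24 ± 0.35 on the log2 scale, and limma did not call it (adjusted p = 0.224). With the control pairs exchanged the difference was 0.94 ± 0.35, the other sign. Spred1 was among the members chosen on earlier results, so this is a description.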

How the results depend on the processing

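The treatment comparisons were refitted under 20 alternatives each and the other 3 comparisons under 19. For glucose, the count of members called stayed at 1, Dusp5, except that leaving out PBS K added Dusp1 (range 1 to 2 when leaving out 1 library). For glucose plus lipid, against 1 in the reported fit, 0 were called without a filter on low genes. With libraries scaled to equal sums, 2 were called (Dusp5 and Spred1). These sums left out Mir682, which held 18.5% to 24.2% of the summed FPKM of a library. The count over all genes was 3 without the filter and 16 with equal sums, against 9. Leaving out 1 library gave 0 to 3, with 0 without PBS H or PBS I, 2 (Dusp1 and Dusp5) without PBS J or PBS K, and 3 (Dusp5, Spry1 and Spred1) without lipid replicate 2, where the count over all genes was 265, against 9. For all treated against all PBS, against 2, only Dusp5 (1) was called with no filter, equal sums, no variance trend, all 4 PBS libraries as 1 group, or either replicate block, by letters H and I or by numbers 1 and 2. The count over all genes in these fits was 17 to 28, against 32. Leaving out 1 library there gave 1 to 2. With the control pairs exchanged the count stayed at 2, but Spry1 was called in place of Dusp1. Between PBS pairs, 1 (Spred1) was called with only those 4 libraries in the fit, against 0. The count over all genes there was 52, against 6. The difference of the effects gave 0 under every alternative run. The cause of these changes was not tested.

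Deviations of same-numbered libraries from their group means correlated at 0.07, -0.06 and -0.04 over 11931 genes. In a group of 2 the libraries deviate by equal and opposite amounts, so each value rests on 1 contrast. The values 0.07 and -0.06 also use lipid replicate 1, with its high neutrophil sum. They cannot decide whether the numbers pair the libraries. The main fit took no pairing, and neither replicate block moved the count of 1 for glucose or for glucose plus lipid. Of 965 values of single members under alternatives, 865 moved by less than the spread between replicates and 100 by more. No value called in the main fit changed sign, which concerns only Dusp5 and Dusp1. Values not called did change sign. Examples are Dusp6 over all 8 libraries (5 of 19 alternatives), Dusp2 in the difference of the effects (6 of 19) and Spred2 after glucose (3 of 20). Equal sums without Mir682 shifted the median of all genes by 0.08 for glucose, -0.14 for glucose plus lipid and 0.12 between PBS pairs. Only 2 libraries a group limit every estimate. Dusp4, Dusp10 and Spry2 rest on few fragments, at most an estimated 97 per library; how far depth sets their spread was not tested.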
